A study of Mus musculus with 6 samples.

Results

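The genes described are 9 that encode enzymes of bile acid synthesis and cholesterol hydroxylation: Cyp7a1, Cyp8b1, Cyp27a1, Cyp7b1, Cyp46a1, Hsd3b7, Akr1d1, Slc27a5 and Baat. They were chosen by name, with earlier results of these data known. They were matched to probe sets that the platform annotation pairs with a single gene symbol. All 9 were measured, by 13 probe sets, among 12393 genes tested. For a gene with more than 1 probe set, the lead probe set is the one with the highest mean over all arrays. The samples are total liver RNA from mice labelled Ppara KO on a C57 background, all 1 month old, so every animal of both groups carries the loss of the nuclear receptor gene Ppara. In 3 mice the liver had received an adenoviral vector, and the titles and design text name TFEB, a transcription factor of lysosomal and autophagy genes, as what was overexpressed; 3 mice were not injected. No mice with an empty vector are in the design, so TFEB and the vector itself cannot be told apart. Each array is labelled as a biological replicate, and the number of arrays limits the precision.

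Bile acids are made from cholesterol in hepatocytes and are the main way the liver disposes of it. In the classical route CYP7A1 hydroxylates the sterol ring first and sets the rate, and CYP8B1 then decides how much cholic acid is formed. In the alternative route the mitochondrial enzyme CYP27A1 oxidises the side chain and CYP7B1 hydroxylates the oxysterol product. A further entry starts with CYP46A1, cholesterol 24-hydroxylase, best known as the enzyme through which neurons in the brain dispose of cholesterol; CYP39A1 acts on its product in the liver. The routes share later steps: HSD3B7 and AKR1D1 change the sterol ring, SLC27A5 activates the acid with coenzyme A, and BAAT joins it to taurine or glycine.

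Promoter sequence was set beside these genes because the injected factor binds DNA. The RefSeq promoter table (GRCm38.p6) held a window for 5 of the 9 genes, Cyp46a1, Cyp8b1, Cyp27a1, Akr1d1 and Hsd3b7. The bases upstream of the outermost annotated start are shown for Cyp46a1, the gene with the largest rise among the 9, and for Cyp8b1, a classical-route gene that missed the threshold. The Cyp46a1 stretch is chr12:108334066-108334267 on the plus strand and the Cyp8b1 stretch chr9:121916306-121916555 on the minus strand, each written 5′ to 3′. Capitals mark matches to the GC box GGGCGG in Cyp46a1 and to the TATA box TATAAA in Cyp8b1.
Cyp46a1: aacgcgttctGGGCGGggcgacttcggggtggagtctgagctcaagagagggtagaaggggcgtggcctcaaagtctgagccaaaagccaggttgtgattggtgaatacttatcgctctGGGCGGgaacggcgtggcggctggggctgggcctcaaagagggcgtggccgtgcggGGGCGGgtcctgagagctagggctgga
Cyp8b1: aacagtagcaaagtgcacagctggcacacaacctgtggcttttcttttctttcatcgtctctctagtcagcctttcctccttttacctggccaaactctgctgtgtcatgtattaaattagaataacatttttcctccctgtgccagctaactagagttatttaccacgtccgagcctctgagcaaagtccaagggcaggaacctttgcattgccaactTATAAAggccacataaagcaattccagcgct
The Cyp46a1 stretch (202 bases) is 64.4% G and C with 3 GC boxes. The Cyp8b1 stretch (250 bases) is 44.8% G and C with 1 TATA box near its end. Over 250 bases Cyp46a1 is 67.6% G and C. The median over all windows is 52.4%, and 12.9% of windows are at or above Cyp46a1. Over the 250 bases before the listed start, on both strands, Cyp46a1 had 4 GC boxes, Cyp27a1 and Hsd3b7 1 each, and Akr1d1 and Cyp8b1 0; 32.7% of the 32851 windows in the table hold at least 1. The E-box core CACGTG, the core of the motif TFEB is known to bind, was in 0 of the 5 windows and in 6.02% of all windows. AGGTCA, the half-site that nuclear receptors such as PPAR and RXR bind in pairs, was found at 2 places in Akr1d1 and in 14.0% of all windows, and TATAAA in 12.4% of all. No 2 of these motifs overlapped in the 5 windows. A match is a description of letters in a window, and the absence of one says nothing about binding elsewhere.

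Of the 9 genes, 1 rose, 5 fell and 3 missed the threshold of 0.05 on the adjusted p in TFEB-injected against not-injected livers (limma, Benjamini-Hochberg over all 12393 genes). Over all genes tested, 17.9% passed, 9.99% higher and 7.92% lower. A fit restricted to the 6197 genes of higher level, at or above the median, held all 9 genes. In it 36.5% of genes passed, and 6 of the 9. The 17.9% used here and below is thus a low yardstick for genes at such levels. The 9 genes were also chosen with earlier results known, so their counts are a description only. The median log2 change of the 9 was -0.28, beside -0.01 over all genes. Cyp46a1, the 24-hydroxylase gene, was the 1 that rose, while Cyp7a1, Cyp27a1, Akr1d1, Slc27a5 and Baat fell. Cyp8b1, Cyp7b1 and Hsd3b7 missed the threshold. The groups did not overlap in 7 of the 9 genes, against 37.1% of all genes. In bulk tissue fewer cells of a type and less RNA per cell cannot be told apart.

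**Figure D1:**
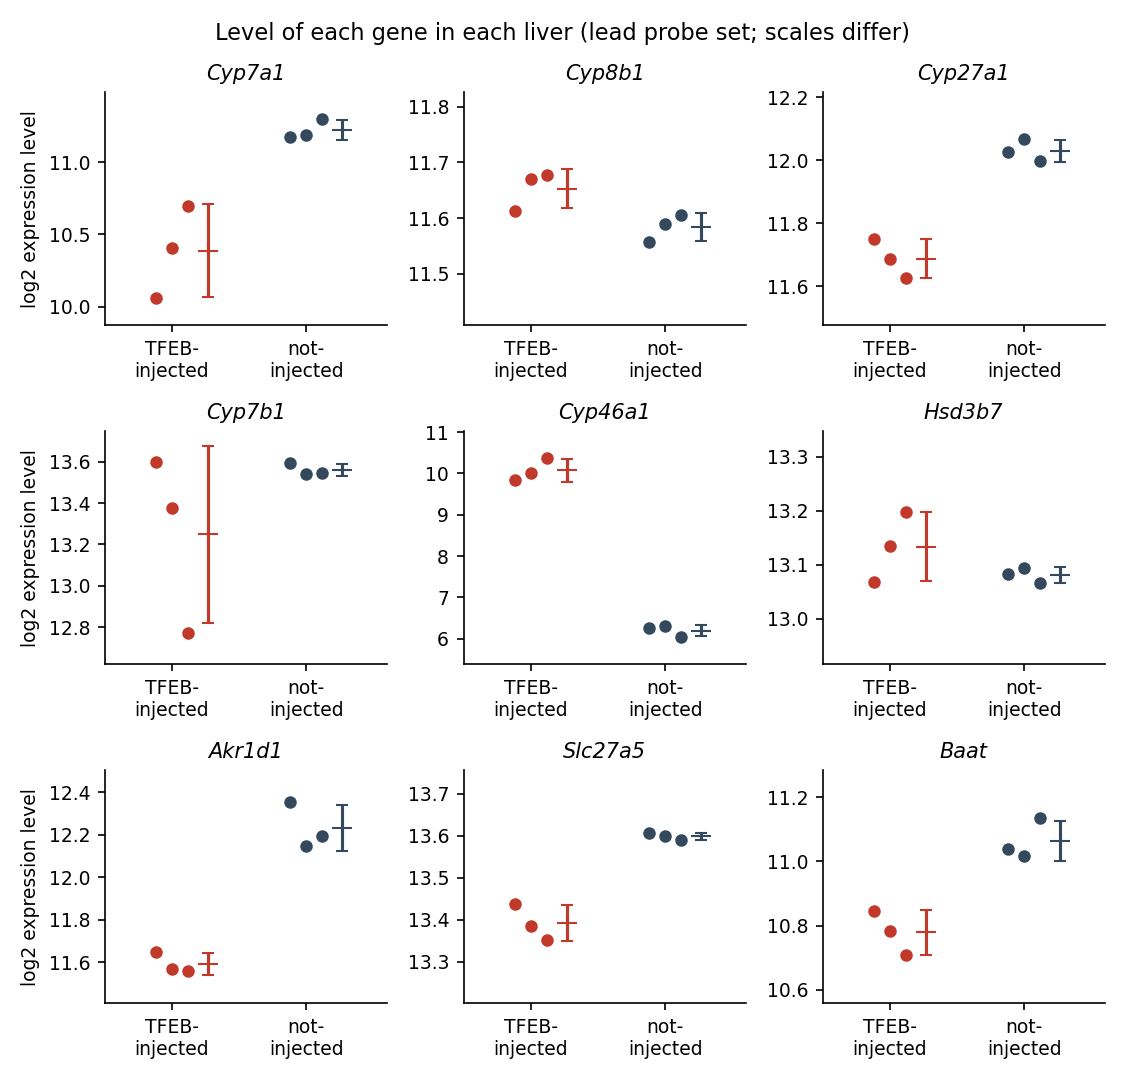
Log2 expression level (RMA) of the lead probe set of each of the 9 genes in each liver, TFEB-injected (red) left of not-injected (dark blue); points are arrays in the order of replicate number, and the bar beside them is the mean with the SD (n = 3 each). Scales differ between panels: Cyp46a1 spans 6.04 to 10.37 and Slc27a5 13.35 to 13.61, and the SD in injected livers is largest for Cyp7b1 (0.43) and Cyp7a1 (0.32).

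The classical route was split. Cyp7a1, the rate-limiting enzyme, read 10.06, 10.40 and 10.70 (log2 level) in injected livers, against 11.18, 11.19 and 11.30 in not-injected livers. All 3 injected livers lay below all 3 not-injected ones, and injected replicate 1 was the lowest. The mean was 10.39 ± 0.32 in injected and 11.22 ± 0.07 in not-injected livers (SD, n = 3 each), a log2 change of -0.83 ± 0.15 (SE), or 1.78-fold lower (limma adjusted p = 0.00793). A second Cyp7a1 probe set read 8.15, 8.33 and 8.32 in injected livers, against 8.9998, 8.85 and 9.05 in not-injected livers. Its change was -0.70 ± 0.07 (SE; adjusted p = 0.00101 in a limma fit over all probe sets, in which 15.4% passed), with the groups again apart.

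Cyp8b1, the sterol 12-hydroxylase gene of the same route, read 11.61, 11.67 and 11.68 in injected livers and 11.56, 11.59 and 11.61 in not-injected livers. The injected arrays lay just above the not-injected ones, without overlap. The log2 change was 0.07 ± 0.04 (SE), with a 95% interval from -0.04 to 0.17 (adjusted p = 0.349). A fall of the size seen for Cyp7a1 lies outside that interval.

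The alternative route had 1 gene that fell. Cyp27a1, the mitochondrial sterol 27-hydroxylase gene, read 11.75, 11.69 and 11.63 in injected livers, against 12.03, 12.07 and 11.998 in not-injected livers. The groups did not overlap and the injected arrays were close together. The log2 change was -0.34 ± 0.05 (SE), or 1.27-fold lower (limma adjusted p = 0.00391).

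Cyp7b1, for oxysterol 7-alpha-hydroxylase, read 13.60, 13.38 and 12.77 in injected livers and 13.59, 13.54 and 13.54 in not-injected livers. Injected replicate 1 was level with the not-injected livers and injected replicate 3 was far below them, so the groups overlapped. The SD was 0.43 in injected and 0.03 in not-injected livers (n = 3 each). The log2 change was -0.31 ± 0.19 (SE; 95% interval -0.75 to 0.12; adjusted p = 0.306), an estimate close to that of Cyp27a1 with a wider error. The second Cyp7b1 probe set showed the same order of arrays, with 13.25, 12.98 and 12.33 in injected livers and 13.20, 13.23 and 13.19 in not-injected livers (adjusted p = 0.289 in the fit over all probe sets).

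Cyp46a1 changed the most of the 9. Its single probe set read 9.83, 10.02 and 10.37 in injected livers, against 6.25, 6.31 and 6.04 in not-injected livers. Every injected liver was above every not-injected liver, with a gap many times the spread within either group. The mean was 10.08 ± 0.27 in injected and 6.20 ± 0.14 in not-injected livers (SD, n = 3 each), a log2 change of 3.88 ± 0.14 (SE; limma adjusted p = 1.68e-05), or 14.7-fold on the deposited scale. The not-injected values lie below the array medians of 6.92 to 6.93, and the table gives no detection calls, so that the not-injected level is above background is not shown and the fold may be understated. Among the genes that fell, Cyp7a1 ranked 51 from the bottom of the 12393 genes by log2 change and Akr1d1 112.

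Since CYP46A1 is known as a brain enzyme, markers of neurons were set beside it. Of 9 listed, 8 were measured, 0 rose and 1 fell, beside 9.99% of all genes higher and 7.92% lower, with a median log2 change of -0.06. Their mean level was 5.002 to 5.07 in injected livers and 5.10 to 5.14 in not-injected livers. The marker that fell was Nefl, a neurofilament gene (-0.23 ± 0.05 SE; limma adjusted p = 0.0256), a call lost without TFEB-injected replicate 2 or not-injected replicate 1 or 2 (adjusted p up to 0.0966). Nefl read 3.98 to 4.09 in injected and 4.21 to 4.31 in not-injected livers. These levels lie well below the array medians, so expression above background is not shown. Stmn2, which missed the threshold at its lead probe set (-0.19), had a second probe set at 0.31 (adjusted p = 0.0190 in the fit over all probe sets).

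The shared steps fell at 3 of 4 genes, beside 7.92% of all genes lower. In the fit restricted to genes of higher level, 979 of 6197 were lower. Akr1d1, for the steroid 5-beta-reductase that bends the ring system, read 11.65, 11.57 and 11.56 in injected livers, against 12.35, 12.15 and 12.19 in not-injected livers. The injected arrays agreed closely and lay below all not-injected ones. The log2 change was -0.64 ± 0.07 (SE), or 1.56-fold lower (limma adjusted p = 8.03e-04). The second Akr1d1 probe set gave -0.69 ± 0.05 (SE; adjusted p = 2.51e-04 in the fit over all probe sets).

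The conjugation genes showed smaller falls. Slc27a5, for bile acyl-CoA synthetase, read 13.44, 13.39 and 13.35 in injected livers, against 13.61, 13.60 and 13.59 in not-injected livers. The groups did not overlap; the log2 change was -0.21 ± 0.04 (SE), or 1.15-fold lower (limma adjusted p = 0.0187). This call was lost without TFEB-injected replicate 2 or any 1 of the not-injected arrays (adjusted p up to 0.0793). Baat, for the amino acid N-acyltransferase, read 10.85, 10.78 and 10.71 in injected livers, against 11.04, 11.02 and 11.14 in not-injected livers. Here too the groups were apart, with a log2 change of -0.28 ± 0.06 (SE; limma adjusted p = 0.0139), a call lost without TFEB-injected replicate 2 (adjusted p = 0.0567). The second Baat probe set gave -0.32 ± 0.09 (SE) and fell just short (adjusted p = 0.0511 in the fit over all probe sets). The lead Baat probe set ends in _s_at, a kind that can detect related transcripts.

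Hsd3b7, the gene of the 3-beta-hydroxysteroid dehydrogenase that follows the first hydroxylation, read 13.07, 13.13 and 13.20 in injected livers and 13.08, 13.09 and 13.07 in not-injected livers. Injected replicate 1 lay among the not-injected arrays and the other injected arrays above them. The log2 change was 0.05 ± 0.05 (SE; 95% interval -0.06 to 0.17; limma adjusted p = 0.527). A fall of the size of that of Akr1d1 is outside the interval.

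**Figure D2:**
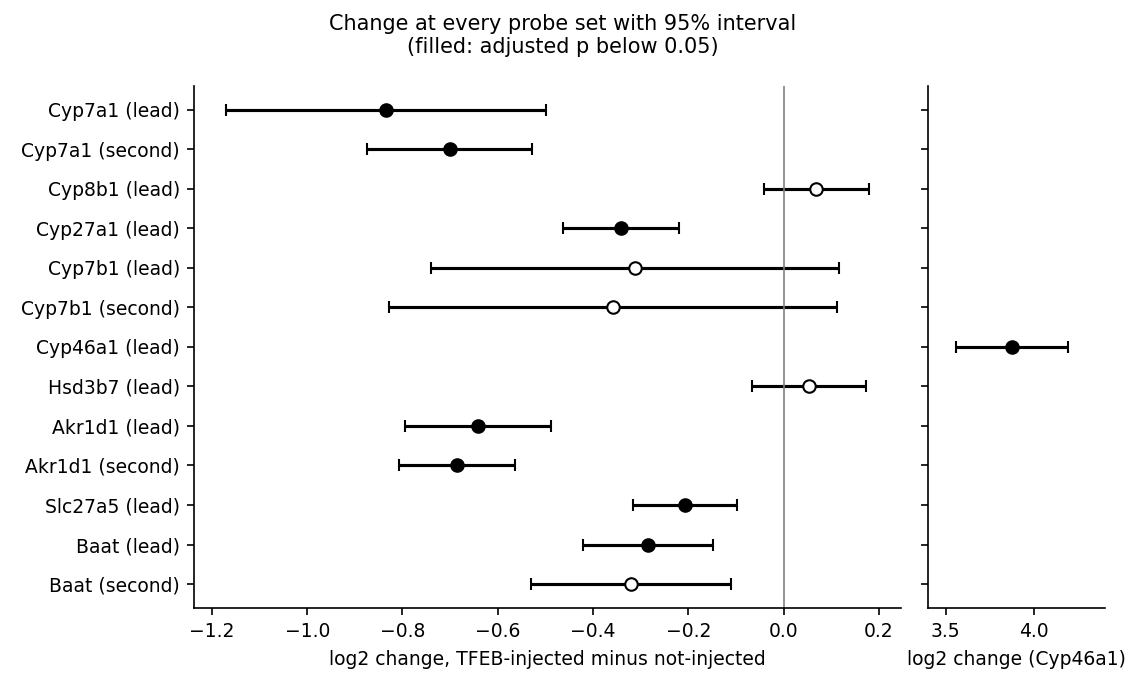
Log2 change, TFEB-injected minus not-injected, at each of the 13 probe sets with its 95% interval from the limma fit over all probe sets; filled circles passed an adjusted p of 0.05 and Cyp46a1 has an axis of its own. Where a gene had a second probe set, the 2 estimates had the same sign, and the widest intervals are those of Cyp7b1.

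The injected livers differed among themselves in which hydroxylase was lowest. Relative to the not-injected mean, Cyp7a1 stood at -1.16, -0.82 and -0.52 in injected replicates 1, 2 and 3. Cyp7b1 stood at 0.04, -0.18 and -0.79 in the same livers. The liver with the lowest Cyp7a1 was thus the one in which Cyp7b1 was level with the controls. At the lead probe sets, the liver with the highest Cyp7a1 of the 3 had the lowest Cyp7b1. The second Cyp7a1 probe set did not repeat this last point. There injected replicate 1 was again the lowest, but replicates 2 and 3 read 8.33 and 8.32. Cyp46a1 stood at 3.63, 3.82 and 4.17, highest in replicate 3. The steps that fell with little spread were Akr1d1 (-0.58, -0.66 and -0.68), Cyp27a1 (-0.28, -0.34 and -0.40), Baat (-0.22, -0.28 and -0.36) and Slc27a5 (-0.16, -0.21 and -0.25). The SD was larger in injected than in not-injected livers for 8 of the 9 genes, Akr1d1 being the exception. Over all genes the median ratio of SDs was 1.24, so most genes went the same way. The share of all genes with the larger SD in injected livers was not computed, so the count of 8 has no yardstick.

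Expression of Cyp7b1 in mouse liver is known to be male-biased, so other genes of that kind were set beside it, from a list written after the values were seen and therefore not tested. Of 12 listed, 10 were measured, and injected replicate 3 was the lowest of the injected livers in 9 of them. The share of all genes with replicate 3 lowest was not computed, so this count has no yardstick. Replicate 3 was also the lowest injected liver for Cyp27a1, Akr1d1, Slc27a5 and Baat. It was the highest for Cyp7a1 (at the lead probe set only), Cyp8b1, Hsd3b7 and Cyp46a1. The median of the 10 male-biased genes stood at -0.28, -0.37 and -0.66 in injected replicates 1, 2 and 3, relative to the not-injected mean. Hsd3b5, a steroid dehydrogenase gene, stood at -0.62, -0.92 and -1.71, and Serpina12 at -0.54, -0.69 and -1.15. The level in replicate 1 differed by gene: Cyp4a12a was at 1.00 there and Elovl3, an elongase gene, at -0.90. Whether this difference between livers has a part in the Cyp7b1 values was not tested.

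**Figure D3:**
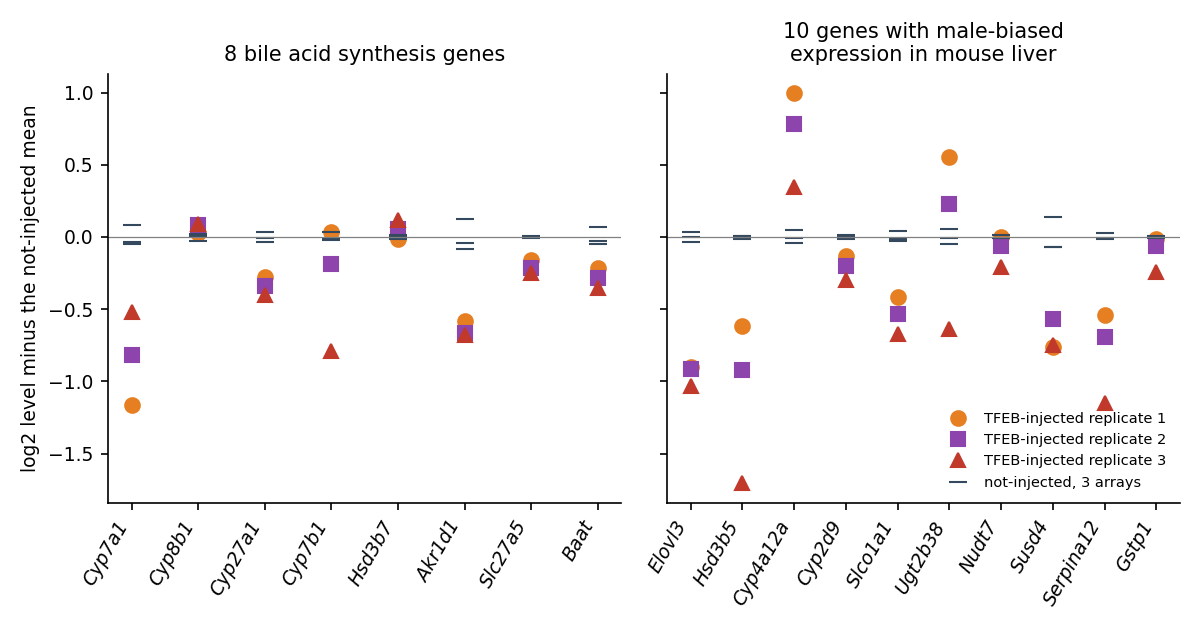
Log2 level minus the not-injected mean in each injected liver (orange circle replicate 1, purple square replicate 2, red triangle replicate 3) and in the 3 not-injected livers (dashes), for 8 of the 9 genes on the left and 10 genes with male-biased expression on the right; Cyp46a1, at 3.63 to 4.17, is off this scale. On the left, replicate 3 is the lowest injected liver for Cyp7b1 (-0.79), Cyp27a1, Akr1d1, Slc27a5 and Baat. Replicate 1 is the lowest for Cyp7a1 (-1.16), Cyp8b1 and Hsd3b7. On the right, replicate 3 is the lowest for 9 of the 10 genes.

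Genes whose values over the 6 arrays were most like these were found by the root mean square difference after centring each gene on its not-injected mean. Nearest to Cyp46a1 were Cox7a1 (0.28), a cytochrome oxidase subunit gene, Cyp4a14 (0.36), a fatty acid hydroxylase gene, and Bex2 (0.45), in log2 units. Nearest to Cyp7a1 were Arid5b (0.08), Wsb1 (0.09) and Abcg5 (0.12), a sterol exporter gene. These genes were picked for their likeness, so a like order of arrays and a like change follow from the choice. Abcg5 read 8.27, 8.65 and 8.87 in injected livers, against 9.28, 9.19 and 9.34 in not-injected livers. Its log2 change was -0.68 ± 0.14 (SE; limma adjusted p = 0.0151). Without not-injected replicate 1 or 3 it missed the threshold (limma adjusted p up to 0.0570).

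Other genes of the pathway were taken from lists by role, also chosen with earlier results of these data known. Of 13 other bile acid synthesis genes, 11 were measured. Of these 2 rose and 3 fell, beside 17.9% of all genes that passed, and the median log2 change was -0.04. Acox2, the peroxisomal oxidase that shortens the bile acid side chain, read 10.86 in each of the 3 injected livers, against 11.53, 11.54 and 11.52 in not-injected livers (log2 change -0.67 ± 0.04 SE; limma adjusted p = 1.39e-04). Cyp2c70, the enzyme that makes muricholic acids in mice, fell by 0.61 ± 0.09 (SE) on the log2 scale, and Abcd3, a peroxisomal importer of bile acid precursors, fell by 0.31 ± 0.06.

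Cyp39a1, for the hydroxylase acting on 24-hydroxycholesterol, read 8.55, 8.59 and 8.63 in injected livers, against 7.97, 8.04 and 7.997 in not-injected livers. It rose by 0.59 ± 0.05 (SE) on the log2 scale, or 1.51-fold, with the groups apart (limma adjusted p = 2.94e-04). Cyp46a1 and Cyp39a1, which was listed with the other synthesis genes, thus both rose. Of the later steps that the routes share, Akr1d1, Slc27a5 and Baat fell and Hsd3b7 missed the threshold. Slc27a2, for a very long chain acyl-CoA synthetase, rose by 0.19 ± 0.04 with all 6 arrays. With an array left out it passed only where that was TFEB-injected replicate 3 (limma adjusted p otherwise up to 0.0941). Ch25h, for another oxysterol-forming hydroxylase, missed the threshold with an estimate of 0.00 ± 0.06 (SE; limma adjusted p = 0.972). Scp2, for a sterol carrier and thiolase, gave 0.04 at its lead probe set and -0.32 at another (adjusted p = 0.0261 in the fit over all probe sets).

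Of 16 listed regulators, 15 were measured; 1 rose and 3 fell, beside 17.9% of all genes that passed, with a median log2 change of -0.14. Ppargc1a, a coactivator of nuclear receptors, read 8.93, 9.73 and 10.42 in injected livers, against 7.43, 7.44 and 7.46 in not-injected livers (log2 change 2.25 ± 0.32 SE; limma adjusted p = 0.00330). The injected livers were all higher and widely spread, with replicate 3 the highest, as for Cyp46a1.

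The receptor pair for the gut hormone FGF15, which represses Cyp7a1, was lower at the lead probe sets. The co-receptor gene Klb fell by 0.62 ± 0.09 (SE) on the log2 scale (limma adjusted p = 0.00310) and Fgfr4 fell by 0.49 ± 0.06 (limma adjusted p = 0.00225). Another Klb probe set gave 0.05, and the other 4 Fgfr4 probe sets gave values between -0.18 and 0.03, none of them past the threshold. That Klb probe set read 4.19 to 4.32 and those of Fgfr4 4.44 to 6.91, below the array medians. Signal above background is not shown for them, so they can say little about a fall. Nr1i3, for the xenobiotic receptor CAR, fell by 0.27 ± 0.06, a call lost without TFEB-injected replicate 2 or any 1 of the not-injected arrays (adjusted p up to 0.0699). Nr1h4, for the bile acid receptor FXR, gave -0.04 ± 0.05 (SE; limma adjusted p = 0.660). Nr0b2, for its target repressor SHP, read 9.46, 9.13 and 8.57 in injected livers and 9.18, 9.18 and 9.28 in not-injected livers. Its injected arrays spanned the not-injected ones (log2 change -0.16 ± 0.20 SE; limma adjusted p = 0.644).

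Among 14 transporter genes, 11 were measured. Of these 1 rose and 4 fell, beside 17.9% of all genes that passed, with a median log2 change of -0.07. Abcb11, for the bile salt export pump, read 11.72, 11.62 and 11.54 in injected livers, against 12.03, 12.03 and 12.11 in not-injected livers (log2 change -0.43 ± 0.06 SE; limma adjusted p = 0.00276). The partner sterol exporter genes Abcg8 (-0.58 ± 0.05) and Abcg5 fell, as did Slco1a1 (-0.54 ± 0.07), for a sinusoidal anion carrier. Slco1a4, another carrier of that family, read 9.84, 10.39 and 10.88 in injected livers, against 9.05, 9.06 and 9.004 in not-injected livers (log2 change 1.33 ± 0.22 SE; limma adjusted p = 0.00683). Slc10a1, for the main bile acid uptake carrier, gave -0.03 ± 0.04 (SE; limma adjusted p = 0.750).

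Of 12 genes for cholesterol supply and storage, 7 were measured; 2 rose and 1 fell, with a median log2 change of 0.03. The lysosomal cholesterol exporters Npc2 (0.32 ± 0.06) and Npc1 (0.15 ± 0.04) rose, and Lcat, the plasma cholesterol esterifying enzyme, fell by 0.22 ± 0.06. The Npc1 call did not survive the removal of any single array (limma adjusted p up to 0.139), that of Npc2 without TFEB-injected replicate 2 or not-injected replicate 1 (adjusted p up to 0.0623), and that of Lcat without TFEB-injected replicate 2 or any 1 of the not-injected arrays (adjusted p up to 0.102). Of 6 other sterol and vitamin D P450 genes, 5 were measured and 0 passed (limma), with 1 at an unadjusted p under 0.05; the smallest p was that of Cyp11a1 (-0.17 ± 0.05 SE; adjusted p = 0.0559). In all, 6 of the 49 measured genes of these lists rose and 11 fell, or 17 of 49 against the 17.9% of all genes that passed. Without not-injected replicate 1 the count was 11 of 49, against 10.3% of all genes in the same fit. In the fit restricted to genes of higher level, 22 of the 42 list genes it held passed, against 36.5% of its genes.

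**Figure D4:**
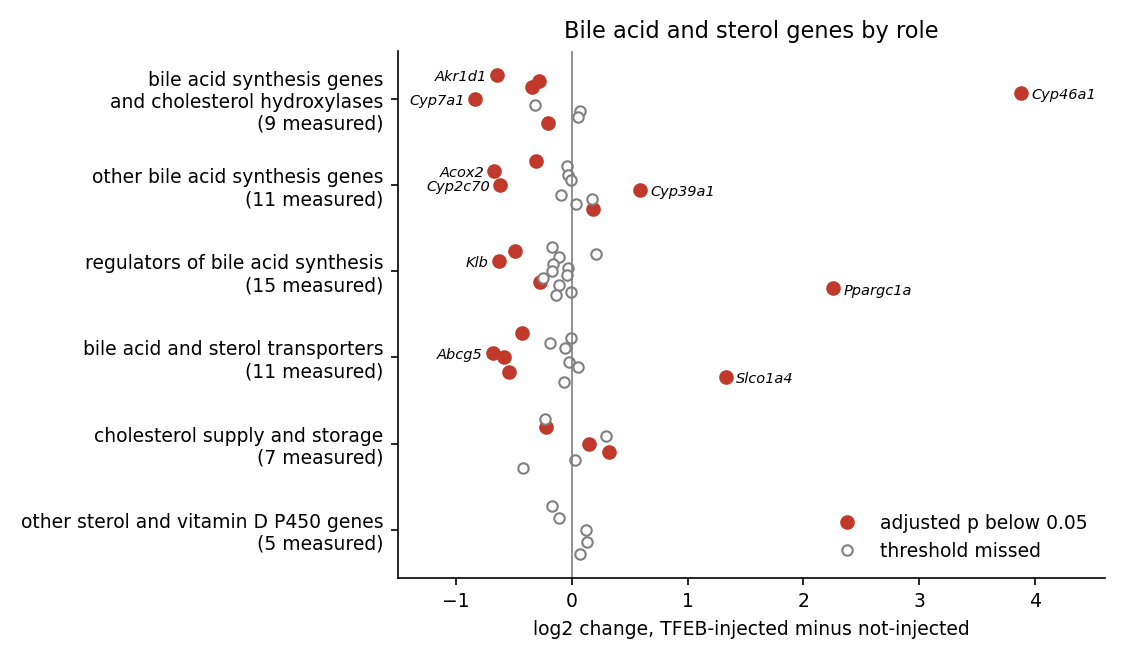
Log2 change, TFEB-injected minus not-injected, of each measured gene of the 9 and of the other lists by role (vertical position within a row has no meaning); filled red circles passed an adjusted p of 0.05 and open circles did not. Cyp46a1 at 3.88, Ppargc1a at 2.25 and Slco1a4 at 1.33 lie far to the right, while the genes that fell lie between -0.83 (Cyp7a1) and -0.21 (Slc27a5).

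Markers of cell types were set beside these values; over all genes, 9.99% were called higher and 7.92% lower. Of 10 hepatocyte markers 8 were measured, with 1 higher, 2 lower and a median log2 change of 0.00, and albumin (Alb) gave -0.08 ± 0.04 (SE; limma adjusted p = 0.263). Hpx rose (0.22 ± 0.05) and Fetub (-0.38 ± 0.05) and Ambp (-0.20 ± 0.04) fell, of which the Hpx and Ambp calls were each lost in 4 of the 6 fits with an array left out. Cyp7a1 is known to be enriched in hepatocytes around the central vein. Of 10 pericentral markers all 10 were measured, 1 rose (Slc1a2, 0.50 ± 0.05) and 0 fell, with a median of -0.01; Cyp2e1 gave 0.01 and Glul -0.02. Of 10 periportal markers 7 were measured, 1 rose (Cdh1, 0.67 ± 0.05) and 3 fell (Hal, -0.87 ± 0.05, Pck1, -0.68 ± 0.05, and Arg1, -0.40 ± 0.05), with a median of -0.17. The mean level of the periportal list was 11.71 to 11.73 in injected and 11.95 to 11.99 in not-injected livers.

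Macrophage markers were higher in 7 of 9 measured (10 listed) and lower in 0, beside 9.99% of all genes higher and 7.92% lower. Their median log2 change was 0.49, with a mean level of 9.32 to 9.65 in injected and 8.97 to 9.03 in not-injected livers. The 4 with the smallest p were Cd5l (0.63 ± 0.05), Vsig4 (0.50 ± 0.06), Cd68 (0.44 ± 0.05) and Clec4f (0.32 ± 0.05). The call of C1qb, another of the 7, was lost without TFEB-injected replicate 2 or any 1 of the not-injected arrays (limma adjusted p up to 0.0814). Of 8 endothelial markers, Stab2 (1.42 ± 0.05) and Lyve1 (0.89 ± 0.07) rose and 0 fell (median 0.01; mean level 8.21 to 8.44 in injected and 8.03 to 8.12 in not-injected livers). Of 5 measured cholangiocyte markers (6 listed) 0 rose and 1 fell (Sox9, -0.33 ± 0.05; median -0.16). Of 7 stellate cell markers 0 rose and 2 fell (Lrat, -0.48 ± 0.10, and Reln, -0.19 ± 0.04; median -0.11), calls lost in 3 and 4 of the 6 fits with an array left out. Their part in the falls of bile acid genes was not tested.

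Facts of the whole series were as follows. The table held log2 values from 3.08 to 15.20 with array medians of 6.92 to 6.93. Correlations between arrays over the tested genes were 0.995 to 0.998 within the injected group, 0.998 to 0.999 within the not-injected group and 0.989 to 0.993 between them. The Tfeb probe set gave 7.59 ± 0.12 in injected and 7.55 ± 0.07 in not-injected livers (SD, n = 3 each; limma adjusted p = 0.777), and that of Ppara 9.08 ± 0.04 in injected and 8.95 ± 0.07 in not-injected livers (limma adjusted p = 0.149). The species of the TFEB carried and the part of Ppara removed are not stated in the labels, so these values do not check them.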

How the data were processed

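The members and gene lists were chosen with earlier results of these data known. Total liver RNA of 6 mice was measured, with groups and replicate numbers from the titles. The authors' values were made with affy and RMA, per the submitters' processing notes; RMA corrects background, quantile-normalizes and summarises probe sets, and its version is not stated there. The deposited values are on a log2 scale, judged from their range. RMA can compress changes at low levels.

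Of 22690 probe sets, 64 were controls; 20393 had 1 gene symbol in the platform annotation, 691 several and 1606 none. Those with 1 symbol were used (20380 without controls), and 20364 gene IDs were in the RefSeq table, with 0 symbols updated. The deposited log2 values were fitted with limma 3.58.1 (R 4.3.3; lmFit, eBayes), 1 lead probe set per gene, and adjusted by Benjamini-Hochberg at 0.05. "Rose" and "fell" are used of genes that passed. The fit was tested on simulated data. Named were all 9 genes, Tfeb, Ppara, up to 4 called genes per list and direction (or the smallest p), and the 3 genes most like Cyp46a1 and Cyp7a1; further genes were named after their values were seen, among them Nr1h4, Nr0b2, Slc10a1, Ch25h, Scp2, Stmn2, Alb, Cyp2e1, Glul and the male-biased genes. Figures used matplotlib 3.10.9 (Python 3.11.15). Alternatives covered the probe set choice, normalization, dim genes, the test, the threshold, a replicate block and leaving out each array.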

Additional observations from a re-analysis of the deposited data

How the results depend on the processing

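Over 18 alternatives for each of the 9 genes, 150 of 162 results kept direction and side of the threshold, 11 lost the call, 1 gained it and 0 changed direction. The estimate could not move with another threshold, an unmoderated or intensity-trend test, a replicate block, dim genes left out or every probe set tested. For a gene with 1 probe set, the probe set choice could not move it either. Direction was fixed in advance in those alternatives. The calls lost were those of Slc27a5 (6), Baat (4) and Cyp7a1 (1, in an unmoderated test; adjusted p = 0.0747); Cyp8b1 passed with array weights (adjusted p = 0.0374), whose estimation stopped before convergence. Of the 9 genes, 4 to 7 passed in any alternative, and with an array left out 4 to 6. The count over all genes, 2219, was 5854 with array weights and 1053 at a threshold of 0.01. With an array left out it was 1229 to 2409: 1229 without TFEB-injected replicate 2, and 1271, 1345 and 1448 without not-injected replicates 1, 2 and 3. For the other lists the count of 17 was 31 with array weights, 10 at 0.01, and 11 to 19 with an array left out. After median centring, 1060 genes were higher and 1352 lower, beside 1238 and 981 as deposited; the counts for the 9 genes stayed at 1 and 5. Same-numbered arrays of the 2 groups did not deviate together (correlations 0.01, -0.13 and -0.11), and differently numbered arrays gave -0.04 to 0.16. With deviations taken from means of 3 arrays, these values cannot decide whether the numbers pair the mice. With the number as a replicate block 4 of the 9, 14 of the other lists and 1533 of all genes passed. The cause of these differences was not tested. Depth in reads does not apply to arrays.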
